A study of Mus musculus with 30 samples.

Results

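Cytosolic ribosomal protein genes encode the proteins of the small and large subunits of the ribosome that translates messenger RNA in the cytoplasm. They were taken as the protein-coding genes on chromosomes 1 to 19 whose symbol is Rpl or Rps with a number and an optional letter, together with Rplp0, Rplp1, Rplp2 and Rpsa, leaving out the Rps6k kinases and pseudogenes. The rule found 77 of 20661 protein-coding genes: 30 of the small subunit, 44 of the large subunit and 3 of the stalk, on 18 chromosomes. A further 4 genes with such symbols lie on the X chromosome, and 324 ribosomal protein pseudogenes were left out. Rps3a1, Fau, Rpl22l1, Rpl7l1 and Rpl36al have symbols outside the rule.

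The study followed histone acetylation in lymphoid cells of C57BL/6 mice after deletion of Crebbp, which encodes CBP, an enzyme that acetylates histones. Every group carries floxed Crebbp alleles. Wild type is CBPfl/fl:Mx-Cre- and Crebbp-/- is CBPfl/fl:Mx-Cre+, in which Cre is driven by an inducible promoter that is active in blood cells in general and not in one lineage. Ages are not given in the sources used here. Chromatin immunoprecipitation with sequencing gave 15 peak lists. Of these, 1 H3K27ac list each came from wild-type and Crebbp-null progenitors, which are lineage-depleted, IL7Ra+ sorted bone marrow cells. For H3K27ac, H3K18ac and H3K56ac there were 2 lists each from wild-type B cells, sorted from spleen by B220, and 2 each from Crebbp-null tissue labelled LPD, which is unsorted spleen. The last was a single CBP list from wild-type B cells. LPD and B cells differ in genotype, in the state labelled LPD and in sorting, and these cannot be told apart. No label says that replicates came from separate mice, so the spread given is that between samples, which may be technical. In unsorted tissue, fewer acetylated cells and less acetylation per cell cannot be told apart.

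Ribosomal protein genes are among the most highly transcribed genes of a growing cell. They are short housekeeping genes with promoters inside CpG islands, and most of their transcripts begin with a C followed by a run of pyrimidines, the 5′ terminal oligopyrimidine tract through which mTOR signalling controls their translation. Many carry small nucleolar RNAs in their introns, which guide the modification of ribosomal RNA. Loss of a single copy of several of them causes Diamond-Blackfan anaemia, an inherited failure of red cell production. Acetylation of histone H3 at lysines 27 and 18 is laid down largely by CBP and its paralog p300 and marks active promoters and enhancers. Acetylation of lysine 56 lies in the core of the histone, where DNA enters the nucleosome.

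The median span of the ribosomal protein genes was 3183 bp, against 17491 bp over all protein-coding genes, from 592 bp at Rpl32l to 11774 bp at Rps15a. Small nucleolar RNA genes lay inside 27 of the 77 (35.1%), 56 in all, against 355 of all protein-coding genes (1.72%). Promoter sequence from RefSeq (assembly GRCm38.p6, the build mm10 of the lists; 250 bases before the annotated start and 50 from it) was found for 57 of the 77. In these the median ratio of observed to expected CpG was 0.877, against 0.595 over 16456 promoters, at a median GC content of 57.0% against 56.7%.

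Short motifs were searched on both strands of those 300 bases as plain letters. The ETS core CCGGAAG was in 23 of 57 ribosomal protein promoters (40.4%) and in 12.2% of all promoters. GGGCGG, the core of the SP1 site, was in 56.1% against 47.3%, and the YY1 letters AAGATGGC in 7.02% against 3.23%. The cyclic AMP response element TGACGTCA, which is bound by CREB, the partner after which CBP is named, was in 5 (Rps9, Rpl18, Rpl27a, Rpl13 and Rpl26), or 8.77%, against 2.42%. Its first part TGACG, which the full element contains, was in 50.9% against 24.2%. TATAAA was the exception, with 7.02% against 13.5%. A C followed by at least 5 pyrimidines, searched on the gene's strand within 10 bases of the start, was in 30 of 57 (52.6%) against 19.7%. A match describes the letters and does not show a bound site.

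The 5 promoters below are shown because the results turn on them: Rpl13a, Rpl27 and Rps19 carried the widest CBP peaks, and Rpl35 and Rpl38 had the largest H3K56ac difference. Each runs from 80 bases before the annotated start through the first 20 bases from it. Capitals mark full matches to the motifs above (the SP1 core also as its reverse complement, CCGCCC), the pyrimidine tract, and CTCGCGAG. Matches to the first part of the cyclic AMP element alone are not marked. Coordinates are chr7:45128726-45128825 on the minus strand for Rpl13a, chr11:101442165-101442264 on the plus strand for Rpl27, chr7:24884512-24884611 on the plus strand for Rps19, chr2:39005112-39005211 on the minus strand for Rpl35 and chr11:114668500-114668599 on the plus strand for Rpl38.
Rpl13a: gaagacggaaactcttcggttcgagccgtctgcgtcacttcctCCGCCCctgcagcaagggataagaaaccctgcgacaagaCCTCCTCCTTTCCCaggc
Rpl27: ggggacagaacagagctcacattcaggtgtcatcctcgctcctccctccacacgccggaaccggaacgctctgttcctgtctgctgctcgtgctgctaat
Rps19: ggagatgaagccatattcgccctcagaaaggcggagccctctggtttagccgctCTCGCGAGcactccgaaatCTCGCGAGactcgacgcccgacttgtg
Rpl35: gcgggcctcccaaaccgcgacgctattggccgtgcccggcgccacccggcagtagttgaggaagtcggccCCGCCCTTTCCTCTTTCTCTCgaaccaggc
Rpl38: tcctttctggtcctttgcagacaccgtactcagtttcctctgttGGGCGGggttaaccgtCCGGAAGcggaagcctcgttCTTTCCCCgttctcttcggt
The pyrimidine tract lies at or beside the annotated start in Rpl13a, Rpl35 and Rpl38, and Rpl27 holds no full match in this stretch. Rps19 lacks the tract at its annotated start and has CTCGCGAG 2 times. The first copy begins 26 bases before the start. The second begins 7 bases before the start and ends on the start base. CTCGCGAG was searched only after these sequences had been read. It was in 6 ribosomal protein promoters (Rpl12, Rps6, Rps19, Rpl27a, Rpl26 and Rps28), 10.5%, against 1.28% of all promoters.

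The measure throughout was the length of sequence, in bp, that the peaks of a list cover inside a gene's RefSeq span widened by 1 kb at each end. It says how far acetylation above the calling threshold extends and says nothing of its height. Across the 14 acetylation lists the number of peaks ranged from 13125 to 39529. Of 7 B cell marker genes, all had an H3K27ac peak in both B cell and both LPD lists. None of 7 myeloid markers had one in the B cells and at most 1 in an LPD list. Of 6 erythroid markers, 1 (Klf1) had H3K27ac in B cells (0.742 and 0.797 kb in sum) and 3 in LPD (4.37 and 1.99 kb), while the globin genes Hba-a1 and Hbb-bs and Epor had none in any list. Of 7 T and NK cell markers, Cd3d and Lck had peaks in every acetylation list and Cd3e, Cd3g, Cd8a and Ncr1 in none, while Cd4 had H3K56ac in both LPD lists alone (429 and 343 bp). The part of other cells in the results below was not tested. Of 5 progenitor markers, Il7r, Flt3 and Dntt had a peak in both progenitor lists, and Kit and Rag1 had none. Il7r and Dntt had no H3K27ac peak in B cells or LPD. Flt3 had more H3K27ac in B cells (8740 and 8266 bp) than in wild-type (3829 bp) or null (2926 bp) progenitors, and had 3649 and 3086 bp in LPD.

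Acetylation was present at nearly every ribosomal protein gene. H3K27ac covered 74 of the 77 in all 4 B cell and LPD lists, a state shared by 45% of all protein-coding genes. H3K56ac did so at 72 (41.5% of all genes) and H3K18ac at 68 (39.6%). Rpl10l, Rpl39l and Rpl32l had no peak in any of the 15 lists. The first pair are retrogene or tissue-restricted copies of ribosomal proteins otherwise encoded on the X chromosome. Rpl3l, the paralog of Rpl3 made in heart and skeletal muscle, had peaks in the 14 acetylation lists, but all lay between chr17:24735864 and 24737049, at the end of its span (chr17:24727826-24736143) where the gene Msrb1 (chr17:24736593-24742778) begins. Its values below are therefore those of an interval shared with Msrb1.

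In wild-type B cells H3K27ac covered more of these genes than the other marks did. There the median over the 74 genes was 1336 bp for H3K27ac (interquartile range 1095 to 1607 bp), 724 bp for H3K18ac and 810 bp for H3K56ac. Over all genes with a peak the medians were 1197, 689 and 677 bp. Rpl18, Rps18, Rpl13a and Rpl4 had the most covered sequence over the 4 lists of each mark. Rpl18, a large subunit gene, had 2729 and 2914 bp of H3K27ac in B cells and 4327 and 3280 bp in LPD. For Rps18, a small subunit gene, H3K27ac covered 2580 and 2198 bp in B cells and 4299 and 3118 bp in LPD. Rpl4 had 2477 and 2585 bp in B cells and 2776 and 2164 bp in LPD. At Rpl18 and Rps18 both LPD lists stood above both B cell lists, and at Rpl4 the groups overlapped.

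**Figure D1:**
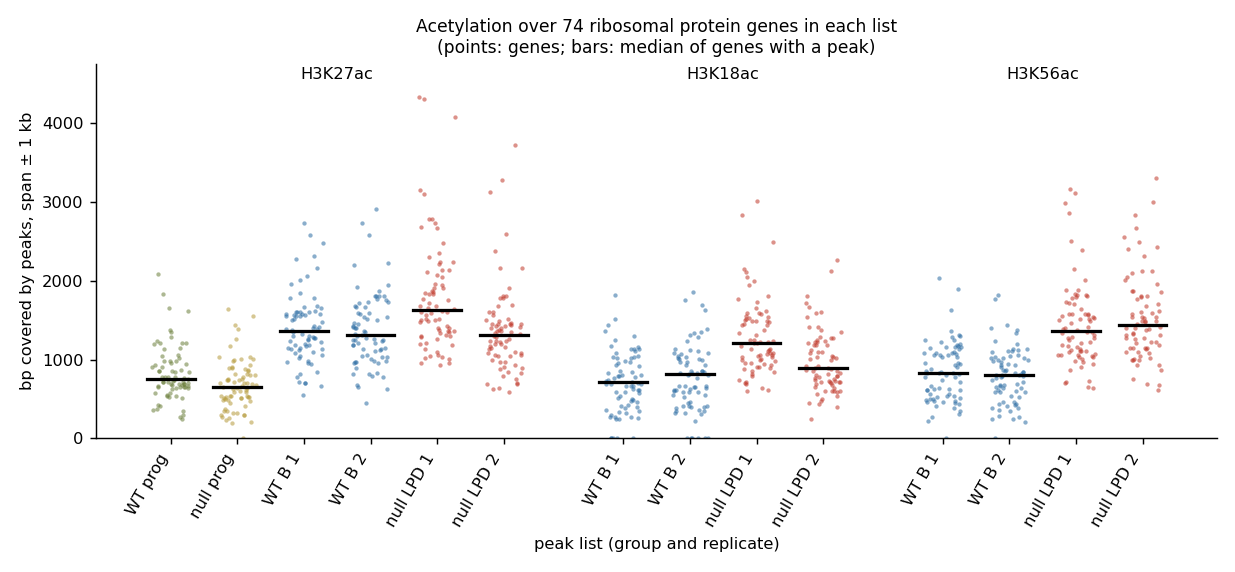
Length covered by peaks (bp, linear axis) over each of the 74 ribosomal protein genes with a peak, in each of the 14 acetylation lists; points are genes and bars the median of the genes with a peak. The H3K56ac medians are 833 and 802 bp in B cells and 1364 and 1436 bp in LPD, while the H3K27ac medians of B cells (1366 and 1307 bp) and LPD (1626 and 1309 bp) overlap.

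The comparison of LPD with B cells asked how far each mark extends in Crebbp-null tissue relative to wild-type cells. For each mark, log2(covered bp + 200) was fitted with limma over all protein-coding genes with a peak in at least 1 of its 4 lists, and a gene was called at a Benjamini-Hochberg adjusted p below 0.05 over all of them. With 2 lists against 2, an exact permutation test of 1 gene cannot go below p = 0.333, so the limma calls rest on the spread that it shares across genes.

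H3K56ac extended further in LPD at most ribosomal protein genes. It rose at 47 of the 74 (63.5%), against 34.4% of all 11105 genes tested, and fell at none, against 3.38%. Both LPD lists exceeded both B cell lists at 71 (67.6% of all genes), the reverse held at none (7.77%), and Rps3, Rpl29 and Rpl19 overlapped. The median log2 difference was 0.67, against 0.47 over all genes tested, and it was above 0 at all 74. No ribosomal protein gene had H3K56ac in the 2 LPD lists while lacking it in the 2 B cell lists (7.99% of all genes) or the reverse (1.84%). Among the genes with a peak in all 4 lists, 47 of 72 (65.3%) were called longer, against 36.4% of 8582 genes. When each list was centred on its median gene, 19 (25.7%), all among the 47, stayed past the threshold, against 16.6% of all genes, with a median of 0.22 against 0.02. Leaving out any list lowered the number of limma calls, and the median log2 difference then ran from 0.62 to 0.74. The count of genes whose groups do not overlap can only stay or rise when a list is left out. Its range of 71 to 74 is therefore no check. With lists of equal peak number that count was 65.

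In the small subunit H3K56ac rose at 20 of 30 genes. Rps19, which binds the head of the small subunit and is the gene most often mutated in Diamond-Blackfan anaemia, had 311 and 391 bp in B cells and 1400 and 1676 bp in LPD, a log2 difference of 1.66 ± 0.15 (SE; limma adjusted p = 0.0068). Both LPD lists held more than 3 times the length of either B cell list. Without the first or the second LPD list its limma adjusted p was 0.0761 or 0.0917. Rps27a, whose protein is made as a fusion with ubiquitin, had 713 and 283 bp in B cells and 1713 and 2129 bp in LPD (log2 difference 1.67 ± 0.36, limma adjusted p = 0.0366), and the B cell lists differed by more than the LPD lists did in proportion. That call was lost without the second B cell list (limma adjusted p = 0.0763), without the first or the second LPD list (0.233 and 0.289), over the span alone (0.161) and with a replicate block (0.0549). It was also lost with a pseudocount of 50 bp (0.0547), with no filter (0.0887) and with lists of equal peak number (0.0518). Mtif2 and Clhc1 lie within 1 kb of Rps27a, and their part was not tested.

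Rps14, the small subunit gene of the 5q- syndrome, had 1199 and 1136 bp in B cells and 2009 and 2094 bp in LPD (log2 difference 0.72 ± 0.08, limma adjusted p = 0.0102). Rps15, a gene mutated in chronic lymphocytic leukaemia, had 387 and 412 bp against 1074 and 1083 bp (1.09 ± 0.10, limma adjusted p = 0.0072). For both, the 2 lists of a group lay close together and the groups far apart. Rps6, the substrate of S6 kinases, had 1364 and 1370 bp against 1581 and 1528 bp, a log2 difference of 0.16 ± 0.08 that was not called (limma adjusted p = 0.181). Rpsa, also known as the laminin receptor, had 525 and 990 bp against 1028 and 1277 bp and was not called (limma adjusted p = 0.227). In these 2 the LPD lists were still the higher ones.

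In the large subunit H3K56ac rose at 25 of 41 genes with a peak. Rpl35, beside the exit tunnel, had no peak in the first B cell list, 246 bp in the second and 1636 and 1708 bp in LPD (limma adjusted p = 0.0207). Rpl38, known for its part in translating Hox messages in the embryo, had 222 and 206 bp in B cells and 1518 and 1403 bp in LPD, 6.82 times as much on average (limma adjusted p = 0.0035). At both genes the B cell peaks were near the narrowest width in the lists, 200 bp. The Rpl35 call was lost without either LPD list (limma adjusted p = 0.202 and 0.220). Rpl23a, with 273 and 0 bp in B cells and 864 and 926 bp in LPD, missed the threshold (limma adjusted p = 0.0532).

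Rpl5, Rpl11 and Rpl23 bind and restrain Mdm2 when ribosome assembly is disturbed, which stabilises p53. Rpl5 had 489 and 350 bp of H3K56ac in B cells and 1028 and 1189 bp in LPD (log2 difference 1.09 ± 0.17, limma adjusted p = 0.0179). For Rpl11 the lengths were 630 and 606 bp against 1059 and 1133 bp (0.66 ± 0.10, limma adjusted p = 0.0160). Rpl23 went from 1057 and 950 bp to 1409 and 1871 bp and missed the threshold (0.60 ± 0.16, limma adjusted p = 0.0582). Rpl22, a large subunit gene needed for αβ T cell development, had 566 and 430 bp against 1113 and 993 bp (0.85 ± 0.15, limma adjusted p = 0.0232). In all 4 the groups stayed apart.

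The stalk recruits elongation factors to the ribosome. H3K56ac rose at 2 of its 3 genes: Rplp0, the scaffold of the stalk, had 474 and 388 bp in B cells and 708 and 694 bp in LPD (log2 difference 0.52 ± 0.13, limma adjusted p = 0.0488), and Rplp2 had 951 and 838 bp against 1573 and 1491 bp (0.66 ± 0.10, limma adjusted p = 0.0174). Of the 18 genes linked to Diamond-Blackfan anaemia, 14 rose (77.8%, against 63.5% of the 74 genes and 34.4% of all genes tested). Rps27, Rpl27, Rpl31 and Rpl35a were not called (limma adjusted p = 0.124, 0.178, 0.0646 and 0.262). All 18 had LPD longer without overlap, as did 95.9% of the 74 and 67.6% of all genes tested.

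**Figure D2:**
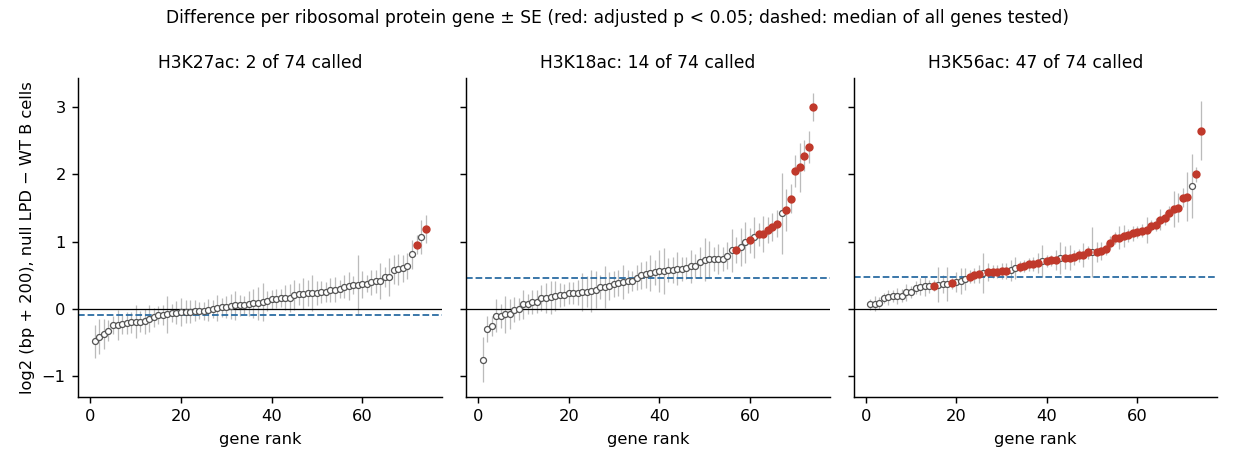
Log2 difference in covered length (bp + 200), LPD minus B cells, for the 74 ribosomal protein genes ranked within each mark, with SE; red points passed limma's adjusted p of 0.05 and the dashed line is the median of all genes tested. The H3K56ac points all lie above 0, the H3K27ac points lie on both sides of it, and called genes number 2, 14 and 47 from left to right.

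Other genes of protein synthesis were set beside these. H3K56ac rose at 16 of 20 translation factor genes, with a median log2 difference of 0.74. It rose at 8 of 22 ribosome biogenesis genes, with a median of 0.53. Of 78 mitochondrial ribosomal protein genes, which build the ribosome of mitochondria, 13 rose and 1 fell, with a median of 0.40. Mitochondrial ribosomal protein genes thus had a share called below that of all genes (34.4%), and the translation factors a share above it. Of the genes outside the rule, Rps3a1 had 806 and 1094 bp in B cells and 1980 and 2178 bp in LPD (limma adjusted p = 0.0196), and Rpl7l1, a Rpl7 paralog active in ribosome assembly, had 0 and 200 bp against 1923 and 1752 bp (limma adjusted p = 0.0142). The lists here were chosen as context, and differences between them were not tested.

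H3K18ac rose at fewer ribosomal protein genes. It was called longer at 14 of 74 (18.9%), a share below the 24.2% of all genes tested, and shorter at none (2.81%). The groups did not overlap at 50 with LPD longer (53.2% of all genes) and at 3 with LPD shorter (11.7%). The median log2 difference was 0.52, against 0.46 over all genes tested. Centring each list on its median gene moved the median of all genes from 0.46 to 0.15 and gave 15 longer and 3 shorter, in place of 14 and 0. No call remained without the first or without the second B cell list, and 9 of the 14 remained without the first LPD list, with no others. The count of genes with LPD shorter rose from 3 to 7 without the first B cell list and to 13 without the first LPD list.

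The H3K18ac calls comprised 8 of 30 small subunit genes and 6 of 41 large subunit genes, and none of the stalk. At 5 genes, Rps10, Rps19, Rps21, Rps24 and Rpl35, H3K18ac was absent from both B cell lists and present in both LPD lists, a pattern of 10.9% of all genes tested, and none showed the reverse (1.82%). Rps19 had 998 and 747 bp in LPD (limma adjusted p = 0.0076), Rps24 had 847 and 701 bp (0.0076) and Rpl35 had 1546 and 1275 bp (0.0045). Rps10 had 698 and 562 bp in LPD (limma adjusted p = 0.0102) and Rps21 had 955 and 444 bp (0.0234). All but Rpl35 encode small subunit proteins, and Rps10, Rps19, Rps24 and Rpl35 are linked to Diamond-Blackfan anaemia. In the list of that disease 6 of 18 genes were called (33.3%), against 18.9% of the 74 and 24.2% of all genes tested. Cables2 lies within 1 kb of Rps21, and over the span of Rps21 alone the call was lost (limma adjusted p = 0.436). The fitted fold of a gene without a peak in one group depends on the 200 bp added and is not given.

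Among genes with H3K18ac in both groups, Rpl10a had 267 and 358 bp in B cells and 1578 and 1218 bp in LPD (log2 difference 1.64 ± 0.22, limma adjusted p = 0.0129). Rpl13a, a large subunit protein that also silences inflammatory messages in myeloid cells, had 1111 and 1106 bp against 2829 and 2117 bp (1.02 ± 0.19, limma adjusted p = 0.0280). Both groups were clearly apart. Of the 14 genes called for H3K18ac, 13 were also called for H3K56ac, the exception being Rps12. The 2 marks came from the same groups of cells. Rpl24, Rps29 and Rpl9 had less H3K18ac in both LPD lists than in either B cell list without passing the test: Rpl24, whose haploinsufficiency slows Myc-driven lymphoma in mice, had 790 and 843 bp in B cells and 601 and 250 bp in LPD (limma adjusted p = 0.181).

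H3K27ac rose at 2 of 74 genes (2.7%), Rps19 and Rpl13a, and fell at none, against 7.77% and 10.1% of all genes tested. At an unadjusted p below 0.05 there were 10 (13.5%), against 32.2% of all genes tested. The groups did not overlap at 28 with LPD longer (23.4% of all genes) and at 8 with LPD shorter (37%). The median log2 difference was 0.09, against -0.09 over all genes. No ribosomal protein gene had H3K27ac in both lists of one group and neither of the other, a pattern found at 4.24% of all genes in favour of LPD and 3.71% in favour of B cells. These counts depended on the LPD list: without the first, 4 rose and 2 fell, the median turned to -0.070 and 40 genes had LPD shorter, and without the second 8 rose, the median was 0.27 and 58 had LPD longer. Without the first or the second B cell list no gene was called, and without the second 14 had LPD shorter. With lists centred on their median gene 16 rose (21.6%), against 16.6% of all genes. Over the span alone 7 rose (9.46%), against 9.18% of all genes.

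Rps19 had 1025 and 1043 bp of H3K27ac in B cells and 3145 and 2167 bp in LPD, a log2 difference of 1.19 ± 0.21 (limma adjusted p = 0.0330). Rpl13a had 2013 and 1809 bp against 4071 and 3716 bp (0.96 ± 0.14, limma adjusted p = 0.0237). Both were called in all 3 marks, and no other ribosomal protein gene was. Rpl10a, with 968 and 658 bp against 2238 and 1608 bp, came next (1.07 ± 0.25, limma adjusted p = 0.0568). In the other direction, Rpl24 had 1195 and 1129 bp in B cells and 1010 and 583 bp in LPD (-0.48 ± 0.25, limma adjusted p = 0.287). Rpl26 and Rpl41 had smaller differences of -0.38 and -0.32 on the log2 scale, neither called.

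At some genes the marks differed in direction, though at a smaller share than among all genes. At 25 of 74 genes (33.8%) the LPD lists were longer without overlap in all 3 marks, against 20.4% of 10534 genes with a peak of each mark. At 6 (8.11%), among them Rpl41, Rpl26, Rps29, Rpl35a and Rpl24, H3K27ac was shorter in both LPD lists while H3K56ac was longer in both, against 17.2% of all such genes. Rpl26, which controls p53 translation, had 1123 and 1302 bp of H3K27ac in B cells and 1098 and 706 bp in LPD, but 833 and 639 bp of H3K56ac in B cells and 1207 and 1387 bp in LPD. Rps29 had 1262 and 1213 bp of H3K27ac against 1180 and 910 bp, and 631 and 802 bp of H3K56ac against 1111 and 1148 bp. The LPD lists were thus the shorter pair for one mark and the longer pair for the other at the same gene. None of these 6 genes was called for H3K27ac.

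The position of the added sequence was read around the annotated start of the 54 genes with both a promoter entry and a peak. In every acetylation list the peaks formed a shoulder upstream and a plateau downstream of the start, with a dip just before it. The added H3K56ac lay mainly downstream. Between 500 and 1000 bp past the start it covered 138 and 116 bp per gene in the B cell lists and 376 and 401 bp in the LPD lists, a rise from 127 ± 15.2 to 389 ± 17.1 bp (SD, n = 2 lists). Between 1000 and 2000 bp it went from 13.3 ± 3.68 to 166 ± 7.42 bp. Over 9009 genes with a peak the same values went from 105 ± 8.42 to 180 ± 8.18 bp and from 33.1 ± 3.16 to 88.3 ± 4.81 bp. The differences at the ribosomal protein genes were 262 and 153 bp. Upstream, within 1000 bp, the difference was 142 bp, against 87.0 bp over all genes.

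Counted per gene between 500 and 2000 bp downstream, both LPD lists had more H3K56ac than both B cell lists at 51 of the 54 (94.4%), against 42.2% of 9009 genes. In the 1000 bp upstream the count was 33 of 54 (61.1%), against 38.3%. For H3K18ac the counts were 33 of 54 downstream (61.1%, against 29.1%) and 18 of 54 upstream (33.3%, against 23.8%). For H3K27ac they were 25 of 54 downstream (46.3%, against 18.7%) and 5 of 54 upstream (9.26%, against 9.26%). All 3 marks had a longer share above the background downstream, and the H3K27ac share upstream equalled the background. The background holds genes with a peak anywhere in the widened span. A gene with no peak in a window counts there as overlapping, which lowers the shares. In the first 500 bp past the start, H3K56ac of LPD covered 464 bp per ribosomal protein gene and 330 bp per background gene. Both LPD lists had less than both B cell lists upstream at 15 of 54 for H3K27ac (27.8%, against 31%), at 7 for H3K18ac (13%, against 11%) and at 3 for H3K56ac (5.56%, against 5.79%). Downstream that held at 1 for H3K27ac (1.85%, against 18%) and at none for H3K18ac (against 6.4%) or H3K56ac (against 3.21%). These windows were chosen after the profile had been seen, and the difference from other genes was not tested. Without the second LPD list the H3K27ac counts were 48 downstream and 28 upstream and the H3K18ac count upstream was 29; the H3K27ac count upstream was 8 without the second B cell list. The H3K56ac count downstream was 51 or 52 with any 1 list left out. Leaving out a list cannot lower such a count, so that range is no check.

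**Figure D3:**
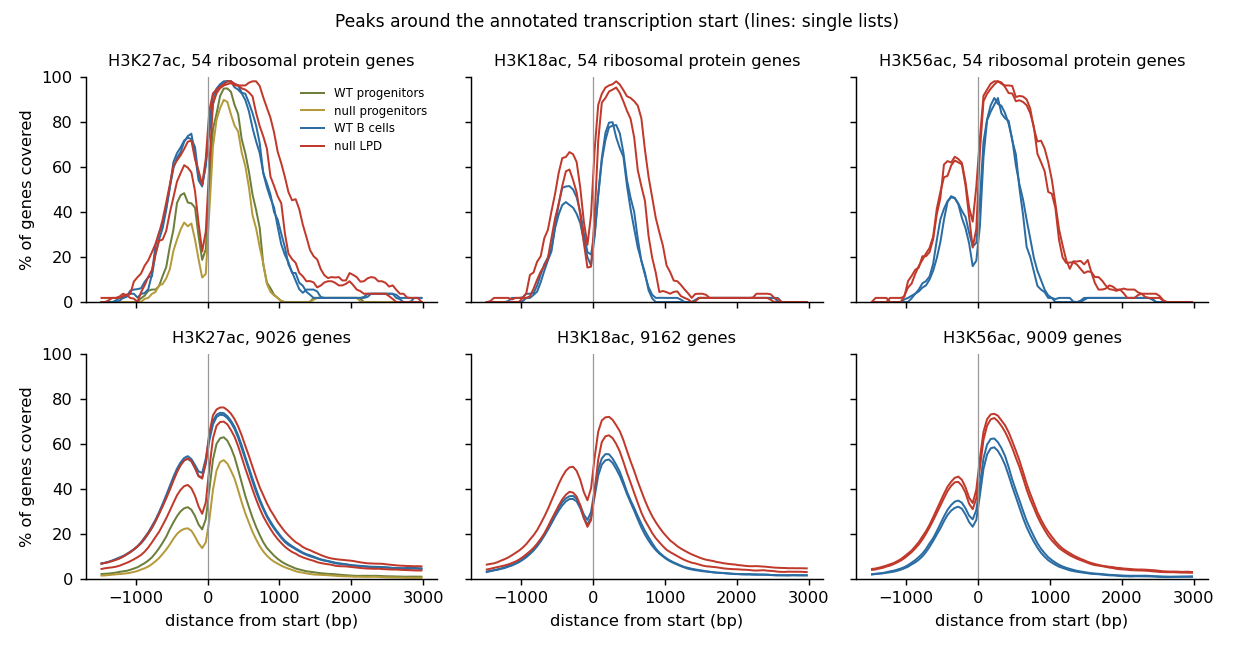
Percent of genes covered by a peak (vertical axis, 0 to 100) by distance from the annotated start in bins of 50 bp, in each list, for 54 ribosomal protein genes (upper row) and all genes with a peak of the mark (lower row). Beyond 500 bp downstream the 2 LPD lines of H3K56ac leave the 2 B cell lines, with 51.3% of the ribosomal protein genes still covered on average at 1000 bp in LPD and 1.83% in B cells.

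H3K27ac had the same form with a wider gap between its LPD lists. Between 1000 and 2000 bp downstream it covered 67.1 and 71.4 bp per gene in B cells and 263 and 133 bp in LPD. Between 500 and 1000 bp it covered 322 and 312 bp in B cells and 444 and 369 bp in LPD. Both LPD lists stood above both B cell lists in these stretches. Within 1000 bp upstream they stood on either side, with 454 and 329 bp in LPD and 431 and 430 bp in B cells.

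CBP itself was listed at 9 ribosomal protein genes: Rps27, Rps19, Rpl13a, Rpl4, Rpl41, Rps26, Rpl27, Rpl37 and Rpl10a. That is 11.7%, against 3.25% of all protein-coding genes. Among genes with H3K27ac in both B cell lists the shares were 12.2% and 6.62%. Over the spans alone 7 ribosomal protein genes had a CBP peak, since those at Rpl41 and Rps26 lie outside the gene. The list holds 1000 peaks in all from 1 sample, so a gene missing from it may still bind CBP. Other lists gave 5 of 20 translation factor genes, 3 of 78 mitochondrial ribosomal protein genes and 1 of 22 ribosome biogenesis genes. No p was computed for these shares.

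At 7 of the 9 genes the CBP peak spans the annotated start. The widest was at Rpl13a (chr7:45128714-45129192, 479 bp), from 447 bp upstream of the start to 31 bp downstream, and it covers all of the printed sequence. At Rpl27 the peak (chr11:101442060-101442465, 406 bp) ran from 185 bp upstream to 220 bp downstream. At Rps19 (chr7:24884289-24884643, 355 bp) it ran from 303 bp upstream to 51 bp downstream, over both CTCGCGAG copies. At Rps26 the peak ended 11 bp upstream of the start. At Rpl41, whose protein is one of the shortest known, it lay 1281 to 1527 bp downstream of the start, past the end of the gene. Zc3h10 lies within 1 kb of Rpl41, and its part was not tested.

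Acetylation covered the CBP peaks to differing extents in the B cell lists. H3K27ac covered all 212 bp at Rps27, all 355 bp at Rps19 and all 345 bp at Rpl4, and 301 and 316 of 319 bp at Rps26. At Rpl41 it covered 247 and 180 of 247 bp, and at Rpl13a 243 and 256 of 479 bp. Coverage was lowest at Rpl27, Rpl37 and Rpl10a, where most of the CBP peak lay outside H3K27ac. At Rpl27 it was 142 and 116 of 406 bp. At Rpl10a, H3K27ac covered 55 and 48 of 200 bp, and H3K18ac covered none. At Rpl37, H3K27ac covered 79 and 83 of 212 bp. The marks also differed among themselves: at Rps19 H3K18ac covered none of the CBP peak and H3K56ac 16 and 4 bp, while at Rpl4 all 3 marks covered it whole.

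**Figure D4:**
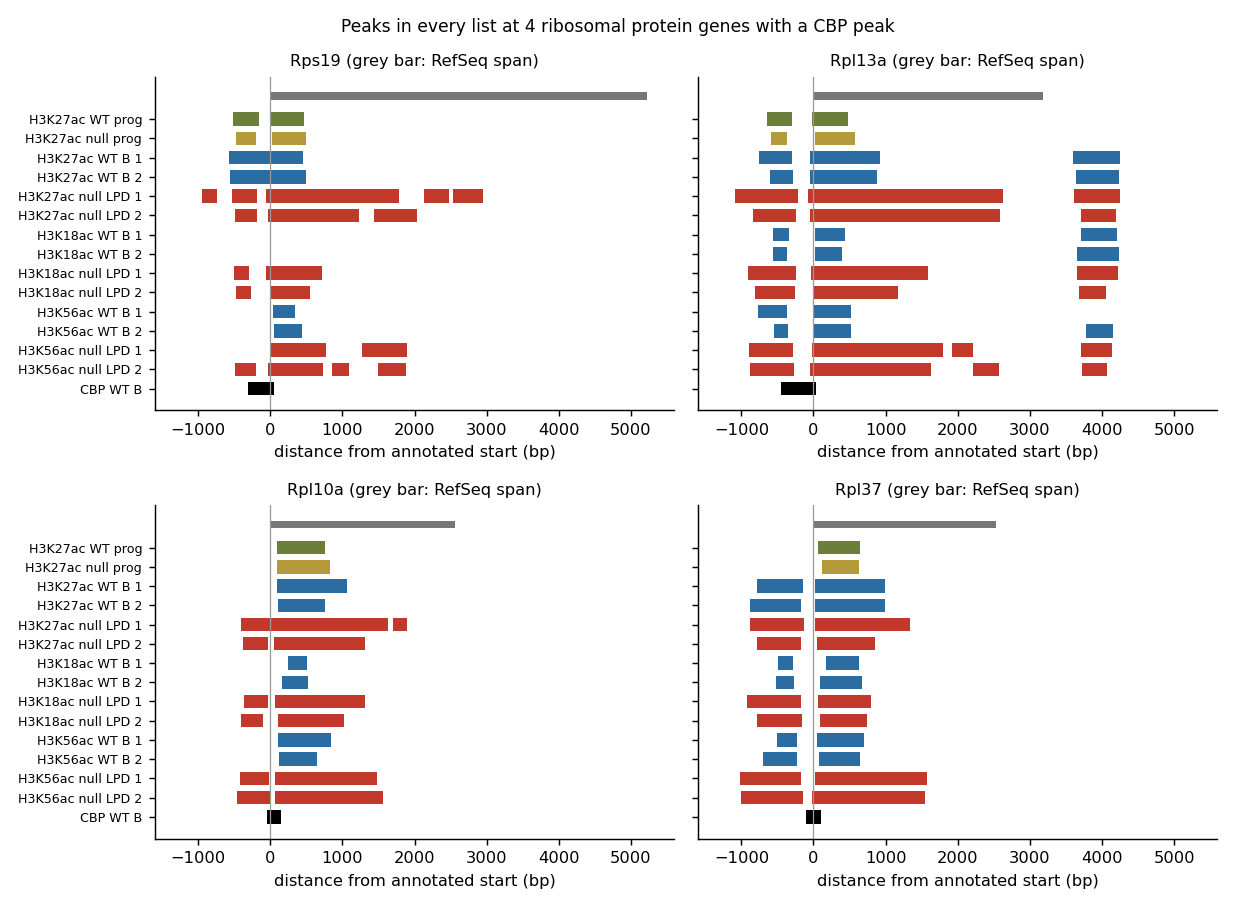
Peaks (bars) by distance in bp from the annotated start (0) in each of the 15 lists at Rps19, Rpl13a, Rpl10a and Rpl37; rows are lists and the grey bar is the RefSeq span. The H3K56ac bar that starts near 0 ends further downstream in both LPD lists than in both B cell lists at each of the 4 genes, and the CBP bar lies across the start.

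The plot of peaks at 4 genes shows how the lengths arose. At Rps19 the H3K27ac peak of the B cell lists ended 457 and 489 bp downstream of the start, and in the LPD lists peaks reached 2950 and 2032 bp. H3K56ac ended 346 and 438 bp downstream in B cells and reached 1897 and 1884 bp in LPD. At Rpl10a the H3K56ac peak ended 847 and 651 bp downstream in B cells and 1477 and 1562 bp in LPD, and an upstream peak was present only in the LPD lists, starting 414 and 461 bp before the start. At Rpl37, H3K56ac ended 701 and 638 bp downstream in B cells and 1576 and 1548 bp in LPD. A separate peak at Rpl13a beyond the end of the gene, from about 3602 to 4250 bp in H3K27ac, was in the B cell and LPD lists alike. No list of progenitors had it.

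H3K56ac in LPD was also compared between ribosomal protein genes with and without a CBP peak in B cells. It rose at 5 of the 9 with a CBP peak (median log2 difference 0.76, from 0.19 to 1.66) and at 42 of the 65 without (median 0.66, from 0.07 to 2.65). For H3K18ac the counts were 3 of 9 and 11 of 65, with medians of 0.63 and 0.50. Both genes called for H3K27ac, Rps19 and Rpl13a, have a CBP peak, yet the median of the 9 was -0.03, against 0.12 for the 65. The 9 include Rpl41 and Rps26, whose CBP peaks lie outside the span. The differences between the 9 and the 65 were not tested.

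In progenitors, 1 list a genotype asked whether H3K27ac differs when Crebbp is lost before mature B cells form. All 74 genes had a peak in the wild-type list and 73 in the Crebbp-null list. The median length over the 74 was 748 bp in the wild type and 649 bp in the null. The null list was the shorter at 66 genes (89.2%), close to the 87.9% of all 9260 genes with a peak. The null list also held fewer peaks in all, 13125 against 17124. A difference of at least 2-fold in bp + 200 was seen at 2 genes with the null shorter, against 17.3% of all genes, and at none with the null longer, against 1.31%. The median log2 difference was -0.15, against -0.30 over all genes. With 1 list a genotype there is no replicate and no test.

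Rps21 had 718 bp in the wild-type progenitor list and no peak in the null. It encodes a small subunit protein and had the largest difference. Rpl14 had 743 and 326 bp, a difference that stayed within 2-fold on that scale. Rps24, with 654 bp in the wild type and 807 bp in the null, had the largest difference the other way, ahead of Rplp0 (369 and 413 bp), Rpl10a (672 and 738 bp) and Rps7 (852 and 893 bp). Rps19 had 846 and 748 bp and Rpl13a 861 and 775 bp, so the genes that rose in LPD in all 3 marks were slightly shorter in the null progenitor list. The wild-type B cell lists (medians 1366 and 1307 bp) covered more of these genes than the wild-type progenitor list. The same held over all genes with a peak, with medians of 1305 and 1278 bp against 772 bp. The B cell lists also held more peaks in all, 30523 and 30198 against 17124.

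**Figure D5:**
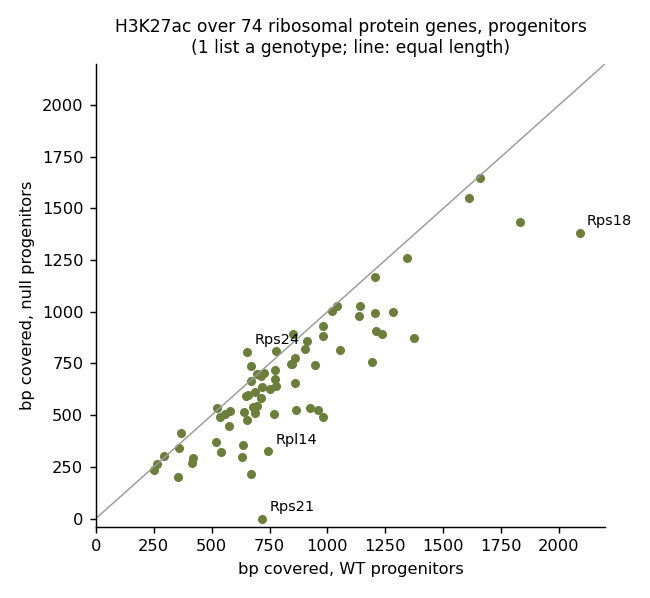
Length covered by H3K27ac peaks (bp, linear axes) over each of 74 ribosomal protein genes in wild-type (horizontal) and Crebbp-null (vertical) progenitors, 1 list each; the line marks equal length. Of the 74 points, 66 lie below the line, and Rps21 lies at 0 on the vertical axis.

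Another protein-coding gene lies within 1 kb of 29 of the 77 genes, and its peaks can enter the measure. H3K56ac rose at 30 of the 46 genes with a peak and no such neighbour (65.2%) and at 17 of the 28 with one (60.7%). Both H3K27ac calls were among genes with no neighbour. For H3K18ac, 7 of 46 without and 7 of 28 with a neighbour were called, so that mark had its higher share at genes with a neighbour. The B cell markers moved with the group as well in H3K56ac and H3K18ac. Their summed H3K56ac was 8.04 and 9.34 kb in B cells and 26.6 and 28.3 kb in LPD, and their summed H3K18ac 9.32 and 11.1 kb against 42.0 and 27.8 kb. Their summed H3K27ac overlapped between the groups, with 47.4 and 45.5 kb in B cells and 57.3 and 41.1 kb in LPD. Their part in the result was not tested.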

How the data were processed

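The authors deposited 15 peak lists that hold only positions (chromosome, start and end in bp), with no score or height; the unit is a position. The submitters' processing notes name Bowtie2 2.1.0, Picard, MACS2 2.0.10 and bedtools on mm10, with settings not given in the sources used here. Read depth is unknown, and deeper libraries can give more and wider peaks. The other 15 samples were not analysed here.

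Covered bp per gene were counted over RefSeq spans (GRCm38.p6) widened by 1 kb, with Python 3.11.15, NumPy 2.4.6 and pandas 2.3.3, and drawn with Matplotlib 3.10.9. Gene presence needed at least 1 bp. LPD and B cells were compared with limma 3.58.1 (R 4.3.3, lmFit, eBayes with trend) on log2(bp + 200). Benjamini-Hochberg adjustment was over all genes with a peak in at least 1 of the 4 lists. The fit was also run on simulated lists made only from genes with a peak in all 4 lists. Those simulated lists do not cover genes that lack a peak in a group. Progenitors and CBP, with 1 list each, had no test. Strand came from the RefSeq promoter table (57 genes).

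The members and lists were chosen with earlier results of these data known. Genes named are those with a CBP peak, those lacking a peak in a list, the 4 widest per mark, up to 4 with the largest called (or otherwise non-overlapping) difference each way per mark, the 4 largest differences each way in progenitors, and a list of genes with known disease or regulatory roles. Genes named beyond that (Rpl26 and Rps29 in H3K56ac, Rpl7l1, Rps3a1, and Rpl10a and Rpl37 among the 9 with CBP for the plot of peaks) were chosen after their values were seen. Some genes that the rule names are not reported here. Alternatives tried were the pseudocount, the filter, the window, centring, lists of equal peak number, a replicate block and leaving out each list.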

Additional observations from a re-analysis of the deposited data

How the results depend on the processing

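Of 242 recomputed counts and medians, 195 kept their value within 1.5 times or within the spread between lists. With no filter, H3K27ac had 1 and H3K18ac 3 ribosomal protein genes called longer. With lists centred on their median gene, 16 (H3K27ac) and 19 (H3K56ac) were longer and 3 (H3K18ac) shorter, and the medians for H3K18ac and H3K56ac were 0.21 and 0.22. Over the span alone, H3K27ac had 7 longer, non-overlapping shorter genes numbered 2 (H3K27ac) and 0 (H3K18ac), the H3K56ac median was 0.72, and 4 were past 2-fold shorter in null progenitors. With a 2 kb window, 1 gene was longer in H3K27ac. With lists of equal peak number, H3K18ac had 1 called and 7 non-overlapping shorter, H3K56ac had 1 non-overlapping shorter and a median of 0.56, and progenitors had 2 longer and 1 shorter. A pseudocount of 1000 bp gave medians of 0.30 (H3K18ac) and 0.42 (H3K56ac), and one of 50 bp gave 0.78 (H3K56ac). The cause of these shifts was not tested.

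Leaving out 1 list at a time, where the lone list is assumed to vary like the others, gave these ranges. Counts without overlap can only stay or rise when a list is left out. For H3K27ac, 0 to 8 were called longer, 0 to 2 shorter, 28 to 58 were longer and 8 to 40 shorter without overlap, and the median ran from -0.070 to 0.27. For H3K18ac, 0 to 13 were called longer, and 3 to 13 were shorter without overlap. For H3K56ac, 3 to 32 were called longer and the median ran from 0.62 to 0.74. Within 1000 bp upstream, 5 to 28 (H3K27ac) and 18 to 29 (H3K18ac) were longer without overlap, and 26 to 48 (H3K27ac) between 500 and 2000 bp downstream, where leaving out lists was added after seeing the data.

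With a replicate block, 3, 18 and 32 genes were called longer for H3K27ac, H3K18ac and H3K56ac. The labels do not say whether the replicate numbers pair the samples. Replicate differences of the 2 groups correlated at -0.004, 0.005 and -0.006 over genes, values that alone cannot exclude a pairing. The 10 called and named results kept their direction in all 135 alternatives and their call in 102. Peak lists carry no depth, so a gene without a peak may hold acetylation below the calling threshold.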
